A study of Homo sapiens with 6 samples.

Results

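The aryl hydrocarbon receptor (AHR) axis was followed through 8 genes, together with NNMT, making 9 genes of the 62700 in the deposited table. The 9 genes were chosen by name, with earlier results of these libraries known: CYP1B1 and NNMT stood high and TIPARP low in the same comparison that is described here. The differences of these 9 genes between the groups are therefore a description, and no test of them is given.

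All 6 libraries are of A549, a long-used cell line from a human lung adenocarcinoma with epithelial character, kept in RPMI-1640 with serum. In the sgControl group (3 libraries, genotype WT) the cells carry a control guide, going by the name. The sgH2AC19 group (3 libraries) is the knockout of H2AC19, which encodes one of the clustered H2A histones. No ligand of AHR and no other agent is named for either group, and the labels do not say whether the knockout cells are 1 clone or a pool, nor whether replicates were separate cultures. Each p-value is therefore set against differences among libraries that could be technical replicates.

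AHR is a transcription factor of the bHLH-PAS family that waits in the cytosol, bound to HSP90 and co-chaperones, until it meets a ligand such as a combustion product, a dioxin or a tryptophan metabolite. It then enters the nucleus, pairs with ARNT and binds DNA sites with the core letters GCGTG. Classical targets are the cytochrome P450 genes CYP1A1 and CYP1B1, whose enzymes oxidise aromatic hydrocarbons with electrons from the reductase POR, and the conjugating enzyme gene UGT1A6. AHRR, which competes for ARNT, and TIPARP, which ADP-ribosylates AHR, are targets that feed back on the receptor. In the airway epithelium this axis is best known as the response to tobacco smoke. NNMT lies outside the classical pathway: it methylates nicotinamide with the methyl group of S-adenosylmethionine and so draws on both the NAD and the methyl cycle.

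The core letters of the AHR-ARNT site were looked for before the starts of these genes, a search chosen after the expression values were known. RefSeq promoters (GRCh38.p14) were at hand for 6 of the 9 genes, AHR, ARNT, AHRR, TIPARP, CYP1A1 and UGT1A6, with 10 annotated starts in all. GCGTG was searched on both strands in the 250 bases before each start and was found 7 times, in 5 of the 10 windows, belonging to 4 genes. Among all 35116 promoters listed, a share of 32.2% holds these 5 letters, and 44.2% of the promoters of genes tested here do. The longer word TNGCGTG, which contains the shorter one, stands in 4.52% of all promoters and in 2 of the 10 windows, 1 of AHRR and 1 of UGT1A6. The 7 sites are shown on the gene's strand, 5′ to 3′, since they belong to the targets whose levels follow, and the capitals mark GCGTG or, where the match is on the other strand, CACGC.
CYP1A1, minus strand, chr15:74725568-74725597: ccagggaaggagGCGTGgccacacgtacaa
TIPARP, plus strand, chr3:156674370-156674399: cgcgagaaaggaCACGCcccctcgcgggag
TIPARP, plus strand, chr3:156674436-156674465: cgaacgaacgcgCACGCgcgcgcagggggc
AHRR, plus strand, chr5:321672-321701: ggcgggcggctcGCGTGccggggtggggca
AHRR, plus strand, chr5:322360-322389: ggcGCGTGacaggcaggggccaccctctga
AHRR, plus strand, chr5:322556-322585: gcagaagggtggGCGTGtgcgcgcgttctc
UGT1A6, plus strand, chr2:233691490-233691519: gaacaggaactcGCGTGccagccaggtgtg
The capitals begin 57 bases before the start in CYP1A1, 208 and 142 bases before it in TIPARP, and 200 bases before it in UGT1A6. In AHRR they begin 30 bases before one start and 247 and 42 bases before another. The windows of AHR and ARNT hold no GCGTG on either strand. A match is a description of the letters and not evidence of binding, and sites further out were not searched.

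Levels are in FPKM, which corrects read numbers for gene length and library size and so lets different genes be compared. Recovered read totals were 35681162 to 45738439 per library. H2AC19 (ENSG00000288859) was listed at 0 FPKM in all 6 libraries, so the target checks neither the knockout nor the labels. On the second principal component (18.2% of the variance) sgH2AC19 replicate 3 stood at -16.0, apart from replicates 1 and 2 at 8.09 and 8.32. Of 6 epithelial keratin and adhesion markers, all were tested, 4 rose and 2 fell, and their summed level was 833 to 863 FPKM in sgControl and 964 to 1011 FPKM in sgH2AC19. Of 7 alveolar type II markers 6 were below the filter, and surfactant gene SFTPC did not exceed 0.123 FPKM in any library. ABCA3, the marker of this list that was tested, stood at 5.43 ± 0.181 FPKM in sgControl and 5.09 ± 0.822 in sgH2AC19, with overlapping groups. The 6 endothelial markers summed to 0.144 to 0.218 FPKM in sgControl and 0.213 to 0.269 in sgH2AC19, and the 6 leukocyte markers to 1.74 to 2.39 and 2.22 to 3.29, nearly all of it CD14. In bulk RNA, fewer cells of a kind and less RNA per cell cannot be told apart.

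The receptor gene and its partner overlapped between the groups. CYP1B1 and TIPARP, the targets among the 9 that were tested, lay on opposite sides, which was known when they were chosen. AHR and ARNT had ratios of 0.984 and 1.02, CYP1B1 and NNMT were 2.85-fold and 2.05-fold higher in sgH2AC19, TIPARP was 1.56-fold lower, and CYP1A1, AHRR and UGT1A6 lay below 1 FPKM in every library. The test took genes that reached 1 FPKM in 3 or more libraries, as 6 of the 9 did. The 3 that did not, AHRR, CYP1A1 and UGT1A6, are given by their levels. In limma's fit over all 12871 genes (Benjamini-Hochberg adjusted p below 0.05), the calls include 3 of these 6, 2 higher and 1 lower, a count that the choice of the genes itself favours. Among all genes tested 23.1% were called, 12.0% up and 11.0% down. Groups that do not overlap, with all 3 libraries of one above all 3 of the other, were seen for 4 of the 6 and for 43.2% of all genes tested. Nothing is read from these counts, because the same comparison chose the genes.

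**Figure D1:**
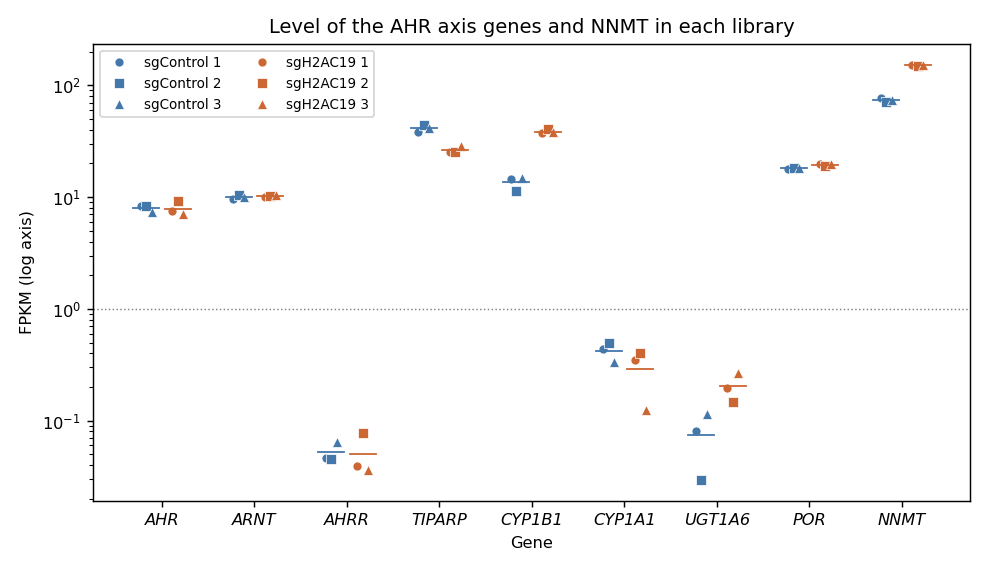
FPKM (log axis) of the 9 genes in each of the 6 libraries, with sgControl in blue, sgH2AC19 in orange, a marker shape per replicate, short lines for group means and a dotted line at 1 FPKM. CYP1B1 (38.5 against 13.5 FPKM) and NNMT (151 against 73.4) sit higher in sgH2AC19 and TIPARP (26.3 against 41.2) lower, while AHR, ARNT and POR lie near their sgControl levels and 3 genes lie below the line.

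The receptor itself was expressed at a moderate level. AHR (ENSG00000106546, chromosome 7) stood at 8.29, 8.39 and 7.33 FPKM in sgControl replicates 1 to 3 and at 7.45, 9.17 and 6.998 in sgH2AC19 replicates 1 to 3. The highest and the lowest of the 6 libraries were both sgH2AC19 libraries, and the groups overlap. Group means were 8.004 ± 0.586 and 7.87 ± 1.15 FPKM (SD, n = 3 each), and the difference on the log2(FPKM + 1) scale was -0.03 (SE 0.0969). With 1 library left out it ran from -0.13 to 0.04. AHR thus differed by less than the spread between its replicates.

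ARNT (ENSG00000143437, chromosome 1), the DNA-binding partner of AHR and also of the hypoxia factors, overlapped between the groups as well. It stood at 9.62, 10.4 and 10.1 FPKM in sgControl and at 10.04, 10.3 and 10.3 in sgH2AC19, with overlapping groups. The log2 difference was 0.02 (SE 0.0459). In sgControl the level of ARNT was 1.25 times that of AHR.

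The repressor gene AHRR (ENSG00000063438, chromosome 5) was at the edge of detection. It was at 0.0466, 0.0454 and 0.0650 FPKM in sgControl and at 0.0392, 0.0769 and 0.0361 in sgH2AC19. These values rest on 16, 17 and 25 recovered reads and on 17, 26 and 13. The groups overlap, and with 58 reads in one group and 56 in the other a difference was not detectable at this depth. AHRR overlaps the neighbouring gene PDCD6 in GENCODE 29, so its few reads are uncertain.

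TIPARP (ENSG00000163659), the mono-ADP-ribosyltransferase that dampens AHR, was well expressed, above 93.3% of the genes tested in sgControl. Its GENCODE 29 locus (GRCh38, plus strand) is chromosome 3, 156673235 to 156706770. It stood at 38.2, 44.2 and 41.1 FPKM in sgControl and at 25.6, 25.1 and 28.4 in sgH2AC19. Every sgH2AC19 library lay below every sgControl library. The means were 41.2 ± 2.98 and 26.3 ± 1.81 FPKM (SD, n = 3 each), and the log2 difference was -0.62 (SE 0.0695), with a range of -0.68 to -0.57 when 1 library was left out. The difference ranked 156 from the bottom of the 12871 genes tested. Its antisense neighbour TIPARP-AS1 was at 0.541, 0.516 and 0.614 FPKM in sgControl and at 1.01, 0.677 and 0.517 in sgH2AC19, with overlapping groups.

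CYP1B1 (ENSG00000138061), the cytochrome P450 that hydroxylates oestradiol and aromatic hydrocarbons, had the largest log2 difference of the 6 genes tested. Its GENCODE 29 locus (GRCh38, minus strand) is chromosome 2, 38066973 to 38109902. It stood at 14.5, 11.4 and 14.7 FPKM in sgControl, from 3157, 2710 and 3588 recovered reads. In sgH2AC19 it was at 37.3, 40.4 and 37.9 FPKM, from 10274, 8688 and 8665 reads. The lowest sgH2AC19 library was well above the highest sgControl library, and sgControl replicate 2 was the lowest of all. The means were 13.5 ± 1.84 and 38.5 ± 1.67 FPKM (SD, n = 3 each), a ratio of 2.85 and a log2 difference of 1.45 (SE 0.0934), which ranked 3 from the top. The antisense transcript gene CYP1B1-AS1 overlaps it and was at 0.155 to 0.272 FPKM in sgH2AC19 and 0.115 to 0.149 in sgControl. Whether counting used the strand is not given in the sources used here, so reads of the pair cannot be told apart.

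CYP1A1 (ENSG00000140465, chromosome 15), commonly the most inducible target of AHR, stayed low in both groups. It was at 0.435, 0.497 and 0.337 FPKM in sgControl and at 0.351, 0.4003 and 0.125 in sgH2AC19. The lowest value, in sgH2AC19 replicate 3, rests on 16 recovered reads, against 46 to 66 in the other libraries, and the groups overlap. The level of CYP1B1 was 31.9 times that of CYP1A1 in sgControl and 132 times in sgH2AC19, from group means of FPKM. These ratios rest on 165 and 118 recovered reads of CYP1A1, and their spread between libraries was not computed. The second ratio is raised by the CYP1B1 difference, which was known when the gene was chosen, and by the low CYP1A1 value of sgH2AC19 replicate 3. Nothing beyond these values is read from the ratios. CYP1A2, the liver form next to CYP1A1, was at 0 in 5 libraries and did not exceed 0.0157 FPKM.

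UGT1A6 (ENSG00000167165, chromosome 2), a glucuronosyltransferase of phenols, was low as well. It was at 0.0802, 0.0294 and 0.115 FPKM in sgControl and at 0.195, 0.147 and 0.266 in sgH2AC19, from 15, 6 and 24 recovered reads and from 46, 27 and 52. The groups do not overlap and the ratio of the means was 2.71, but the gene did not reach the filter. UGT1A genes share their last exons, so the split of reads among them is uncertain. UGT1A9, whose first exon lies upstream in the same locus, rose from 1.03 ± 0.178 to 1.65 ± 0.266 FPKM (log2 difference 0.39, limma adjusted p = 0.0366) and lost its call without any 1 of the 6 libraries (adjusted p 0.0509 to 0.106). UGT1A7 was at 1.08 and 1.28 FPKM (limma adjusted p = 0.414).

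POR (ENSG00000127948, chromosome 7), the reductase that feeds electrons to microsomal P450 enzymes, was at 17.8, 18.1 and 18.1 FPKM in sgControl and at 19.7, 19.03 and 19.9 in sgH2AC19. All 3 sgH2AC19 libraries were above the sgControl libraries, by a small amount. The ratio of the means was 1.08 and the log2 difference 0.11 (SE 0.0405).

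NNMT (ENSG00000166741), the nicotinamide methyltransferase, was the most abundant of the 9, above 96.5% of the genes tested in sgControl. Its GENCODE 29 locus (GRCh38, plus strand) is chromosome 11, 114257787 to 114313285. It stood at 76.5, 70.3 and 73.6 FPKM in sgControl and at 153, 148 and 152 in sgH2AC19. The replicates lay close together and the groups far apart. The means were 73.4 ± 3.10 and 151 ± 2.39 FPKM (SD, n = 3 each), a ratio of 2.05, and the log2 difference was 1.03 (SE 0.0438), ranked 25 from the top. Fibroblasts also make NNMT. Of 7 fibroblast markers 2 were tested. LUM rose from 2.81 ± 0.299 to 3.97 ± 0.434 FPKM (limma adjusted p = 0.0208), and COL1A1, at 0.641 ± 0.0641 and 1.39 ± 0.124 FPKM, passed the filter only through sgH2AC19, where it is high, so no call of it is given. The 7 summed to 3.29 to 3.76 FPKM in sgControl and 5.17 to 6.03 in sgH2AC19. Below the filter, COL3A1 had means of 0.0301 FPKM in sgControl and 0.115 in sgH2AC19, and its groups do not overlap. PDGFRB (0.00746 and 0.0492) and COL1A2 (0.00085 and 0.0047) also had higher means in sgH2AC19, from very few recovered reads. PDGFRB had 4, 0 and 2 reads in sgControl and 10, 26 and 4 in sgH2AC19, with overlapping groups. COL1A2 had 1, 0 and 0 reads in sgControl and 2, 2 and 2 in sgH2AC19. DCN (0.0347 and 0.0176) had a lower one, and POSTN was at 0 in all libraries. The part of fibroblast markers in the NNMT difference was not tested.

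**Figure D2:**
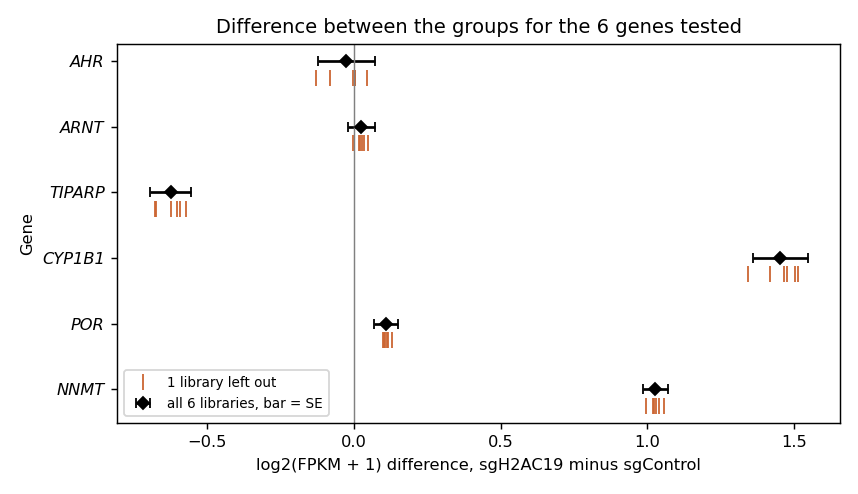
Difference on the log2(FPKM + 1) scale, sgH2AC19 minus sgControl, for the 6 genes tested. Diamonds with bars are limma's estimates with SE over all 6 libraries and ticks are the values with 1 library left out. CYP1B1 (1.45), NNMT (1.03) and TIPARP (-0.62) keep their sides with any 1 library left out, and AHR and ARNT fall on both sides of 0.

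The levels in sgControl order the 9 genes from NNMT through TIPARP, POR, CYP1B1, ARNT, AHR, CYP1A1 and UGT1A6 to AHRR. UGT1A6 and AHRR overlap in their sgControl libraries. In sgH2AC19 CYP1B1 stood between NNMT and TIPARP, above every library of TIPARP, whereas in sgControl it was below POR. ARNT and AHR did not overlap within either group.

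The genes whose libraries were most like those of CYP1B1, AHR and NNMT were sought among 11382 other named genes tested, by the root mean square distance of the log2(FPKM + 1) deviations from the sgControl mean over the 6 libraries. For CYP1B1 these were the fibrinogen chain genes FGA (distance 0.166), FGG (0.166) and FGB (0.203), at log2 differences of 1.35, 1.42 and 1.34. For NNMT they were IGFBP4 (0.0314), an IGF-binding protein gene that went from 217 ± 10.7 to 457 ± 10.01 FPKM, BICD2 (0.0477), a dynein adaptor gene, and ZNF664 (0.0514). For AHR they were MSANTD4 (0.0242), OGFRL1 (0.0366) and ANKMY2 (0.0401). Like AHR, each of these was highest in sgH2AC19 replicate 2, and no call was made for any of them (limma adjusted p 0.664 to 0.942). CYP1B1 and NNMT were chosen with their group difference known. This difference enters the distance, so genes with a like difference come nearest to them, and nothing is read from the likeness.

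**Figure D3:**
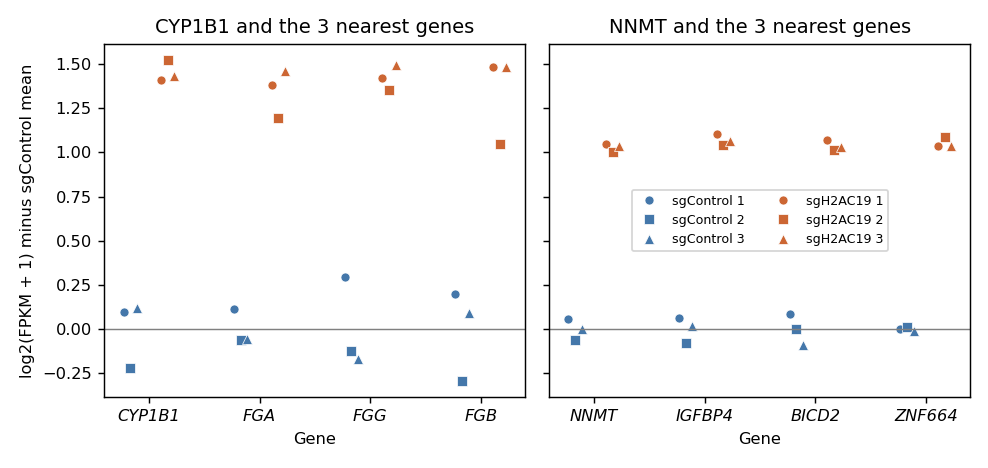
Deviation of log2(FPKM + 1) from the sgControl mean in each library for CYP1B1 and NNMT and the 3 genes nearest to each, with sgControl in blue, sgH2AC19 in orange and a marker shape per replicate. The distances are 0.0314 to 0.0514 in the NNMT panel and 0.166 to 0.203 in the CYP1B1 panel. They take in the group difference, which ranked 25 from the top for NNMT and 3 for CYP1B1.

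Beyond the 9 genes, 10 lists of related genes were read from the same fit. They hold 200 distinct genes, of which 104 were tested. Of these 26 were called, 14 up and 12 down, or 25.0%, near the 23.1% over all genes. Their median log2 difference was 0.01, against -0.01 over all genes tested. The count of 26 fell to 14, 12 and 14 without sgControl replicate 1, 2 or 3, and to 15 and 16 without sgH2AC19 replicate 1 or 2.

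Among the chaperones and cofactors that hold AHR ready or act with it at DNA, 13 of 14 were tested, with a median log2 difference of 0.01. HSP90AA1, the inducible HSP90 gene, was at 252 ± 15.7 and 279 ± 12.8 FPKM, with groups that do not overlap (limma adjusted p = 0.109). SMARCA4, a chromatin remodeller gene, lay near 1 FPKM and was not tested.

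Of 19 relatives of AHR and ARNT in the bHLH-PAS family and its PAS partners, 14 were tested, 3 rose and 2 fell. The median was 0.01, and 9 of the 14 were not called. BMAL2, an ARNT-like circadian factor gene, went from 19.5, 20.2 and 19.1 FPKM in sgControl to 9.56, 9.62 and 12.3 in sgH2AC19 (log2 difference -0.85, SE 0.0907, limma adjusted p = 0.0015). EPAS1, which encodes the hypoxia factor HIF-2α and pairs with ARNT, rose from 54.0 ± 3.57 to 69.6 ± 2.23 FPKM (0.36, limma adjusted p = 0.00551). The circadian repressor genes PER1 (4.90 ± 0.260 to 7.22 ± 0.228 FPKM) and PER2 (2.13 ± 0.134 to 3.23 ± 0.298 FPKM) rose by 0.48 and 0.44 (limma adjusted p = 0.00167 and 0.00689). These 4 genes kept their calls in all 13 alternatives.

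Of the 19 other genes known to respond to AHR ligands, 10 were tested, 1 rose, 2 fell and 7 were not called, with a median of 0.08. The quinone reductase gene NQO1, a target of both AHR and NRF2, was at 325 ± 5.41 and 353 ± 6.30 FPKM (limma adjusted p = 0.0512). It was not called, but its groups do not overlap, as for 43.2% of all genes tested. The aldehyde dehydrogenase gene ALDH3A1 was at 114 ± 12.5 and 103 ± 4.39 FPKM, with overlapping groups. NEDD9, a focal adhesion scaffold gene, rose from 10.00 ± 0.268 to 14.2 ± 0.969 FPKM (0.46, SE 0.0582, limma adjusted p = 0.0025). The NRF2 gene NFE2L2 fell from 10.4 ± 0.158 to 8.28 ± 0.646 FPKM (-0.30, limma adjusted p = 0.0129, and 0.0503 without sgControl replicate 1). The glycoprotein hormone gene STC2 fell from 145 ± 15.7 to 111 ± 3.88 FPKM (-0.38, limma adjusted p = 0.0142). With 10 genes tested and 23.1% of all genes called, nothing is read from the counts of this list.

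Enzymes that make or clear tryptophan-derived ligands were mostly low. Of 12 genes 4 were tested, 0 rose and 1 fell by limma's adjusted p, with a median of 0.08. AFMID, the formamidase that yields kynurenine, fell from 3.87 ± 0.199 to 2.89 ± 0.293 FPKM (-0.32, limma adjusted p = 0.0183). It lost its call without sgControl replicate 2 or 3 (adjusted p 0.0656 and 0.0686). TDO2, the dioxygenase that opens the tryptophan ring, was at 1.57 ± 0.0368 and 1.89 ± 0.1402 FPKM, with groups that do not overlap (limma adjusted p = 0.111). Of 21 other UGT genes 2 were tested, UGT1A9 and UGT1A7 as given above, and 4 were at 0 in all libraries.

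Of 55 other cytochrome P450 genes 14 were tested, 3 rose and 2 fell, and the median was -0.07. The vitamin D 24-hydroxylase gene CYP24A1 went from 181, 160 and 192 FPKM in sgControl to 275, 277 and 356 in sgH2AC19 (log2 difference 0.76, SE 0.112, limma adjusted p = 0.00447). It was highest in sgH2AC19 replicate 3 and kept its call in all 13 alternatives. CYP26B1, which clears retinoic acid, fell from 3.10 ± 0.0886 to 2.26 ± 0.297 FPKM (-0.34, limma adjusted p = 0.0204), CYP4F12 fell by 0.28 on the log2 scale and CYP2U1 rose by 0.30. Each of these 3 lost its call with some libraries left out: CYP26B1 without sgControl replicate 1, 2 or 3 or sgH2AC19 replicate 2 (adjusted p up to 0.0730), CYP4F12 without any but sgH2AC19 replicate 3 (up to 0.136) and CYP2U1 without any but sgControl replicate 1 (up to 0.112).

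Of 18 redox partners and haem enzymes around POR, 16 were tested, 2 rose and 0 fell by limma's adjusted p, with a median of 0.02. PGRMC2, a haem-binding membrane protein gene, rose from 39.3 ± 0.324 to 49.5 ± 1.17 FPKM (0.32, SE 0.0387, limma adjusted p = 0.00217). The mitochondrial ferredoxin gene FDX1 rose from 10.8 ± 0.569 to 15.7 ± 2.36 FPKM (0.49, limma adjusted p = 0.0169). It lost its call without sgControl replicate 2 or 3 or sgH2AC19 replicate 1 or 2 (adjusted p 0.0502 to 0.0598). Among 16 relatives of TIPARP in the PARP family 13 were tested, 1 rose and 1 fell, with a median of -0.02. PARP12 fell by 0.23 on the log2 scale (limma adjusted p = 0.0211) and lost its call without any library but sgH2AC19 replicate 3 (up to 0.0766). PARP16 rose by 0.32 (limma adjusted p = 0.0274) and lost its call without sgControl replicate 1 or 2 or sgH2AC19 replicate 1 or 2 (up to 0.0834).

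Around NNMT, 12 of 16 genes of NAD and nicotinamide metabolism were tested, 2 rose and 3 fell, with a median of -0.03. The NAD hydrolase gene CD38 went from 5.17, 4.44 and 4.72 FPKM in sgControl to 9.45, 9.49 and 6.28 in sgH2AC19 (log2 difference 0.68, SE 0.141, limma adjusted p = 0.0150, and 0.0565 without sgControl replicate 2). NT5E, the surface 5′-nucleotidase CD73, fell from 63.3 ± 1.49 to 45.1 ± 5.27 FPKM (-0.49, limma adjusted p = 0.00628). The nicotinamide riboside kinase gene NMRK1 fell from 4.62 ± 0.196 to 3.39 ± 0.189 FPKM (-0.36, limma adjusted p = 0.00593). NMNAT1, the gene of the nuclear nicotinamide mononucleotide adenylyltransferase, rose by 0.23 (limma adjusted p = 0.0369) and lost its call without any 1 of the 6 libraries (up to 0.117). NAMPT, the rate-limiting enzyme that recycles nicotinamide, was at 18.9 ± 1.34 and 22.1 ± 3.13 FPKM with overlapping groups (limma adjusted p = 0.186).

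On the methyl side, 10 of 16 genes of the methionine cycle were tested, 1 rose and 0 fell by limma's adjusted p, with a median of 0.05. AHCYL1, a relative of S-adenosylhomocysteine hydrolase, rose from 24.4 ± 0.271 to 28.4 ± 0.794 FPKM (0.21, limma adjusted p = 0.0119, and 0.0540 without sgControl replicate 1). AHCY itself, which clears the product that NNMT leaves, was at 47.0 ± 1.49 and 42.1 ± 2.47 FPKM, with groups that do not overlap (limma adjusted p = 0.0790).

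**Figure D4:**
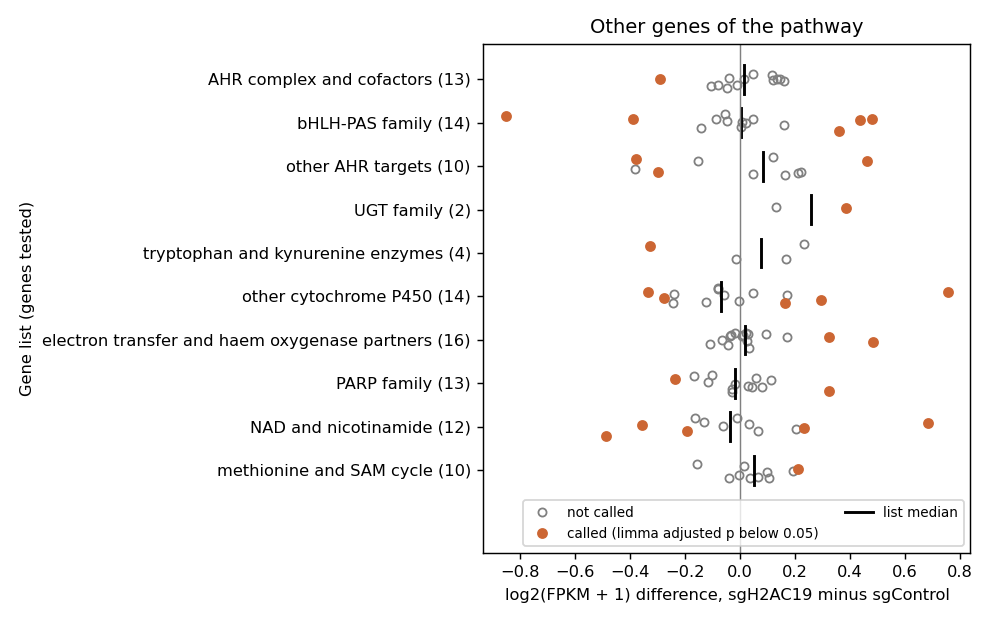
Difference on the log2(FPKM + 1) scale, sgH2AC19 minus sgControl, of the genes tested in each of the 10 lists, with filled points for called genes, open points for the others and a black line for the list median. Medians lie between -0.07 and 0.26, the latter for 2 UGT genes, and calls fall on both sides of 0 in 5 lists.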

How the data were processed

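Per the labels' protocols, total RNA was purified by kit and the SMARTER chemistry was used for sequencing. The authors deposited FPKM per gene, per the file headers. No source used here gives the aligner, the counter or the annotation. The submitters' processing notes name the mouse builds GRCm38 and mm10, whereas all 62700 gene IDs matched human Ensembl genes and 0 had the mouse prefix. The header's sgNC and sgH2AC columns were matched to the sgControl and sgH2AC19 titles by name and number. No column was left unused.

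Reads were recovered from the spacing of the FPKM, since 1 read is worth a fixed amount for each gene and library. Whole reads resulted for 12870 of 12871 genes tested (tolerance 0.001), with the GENCODE 29 length for 3759 and otherwise with the smallest fitting length, so true reads may be a multiple. Genes with at least 1 FPKM in 3 libraries were compared as log2(FPKM + 1), which understates changes of low genes, with limma 3.58.1 (R 4.3.3), a mean-variance trend, a two-sided test and Benjamini-Hochberg adjustment over all genes tested. SEs are limma's. For AHRR, CYP1A1 and UGT1A6 means and ranges of FPKM are given. The fit was tested on simulated data with known changes. Of 78 genes changed 1.5-fold and tested, 74 were called, as were 54 of 55 changed 2-fold and 61 of 61 changed 3-fold. Beside these, 17 unchanged genes were called. The simulated libraries were independent and of like spread, with none set apart as sgH2AC19 replicate 3 is. All genes were drawn with the same fixed dispersion, which was not estimated from these data. The outcome therefore does not show how the fit does with such a library or with genes of wider spread.

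The 9 genes and all lists were chosen with earlier results of these data known. Named beside them are at most 4 called genes a list, ranked by adjusted p, and the 3 genes nearest to AHR, CYP1B1 and NNMT. The values of 1 listed gene are not reported here. The choice of NQO1, ALDH3A1, HSP90AA1, SMARCA4, TDO2, NAMPT, AHCY, UGT1A7, CYP1A2 and the markers shown by name came after their values were known. Alternatives were 2 scalings, 2 filters, a pseudocount of 0.1, the replicate number as a block, voom on the recovered reads with TMM factors, and leaving out each library. Python 3.11.15 was used for the other steps.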

Additional observations from a re-analysis of the deposited data

How the results depend on the processing

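Over the 13 alternatives the log2 difference ran from 1.34 to 1.52 for CYP1B1, from 1.00 to 1.06 for NNMT, from -0.68 to -0.57 for TIPARP and from 0.10 to 0.13 for POR, and it took both signs for AHR (-0.13 to 0.04) and ARNT. These ranges describe genes chosen on the same values. Over all genes the count of 2967 fell to 1553 with every gene above 0 FPKM in the test, and ranged from 1513 (without sgControl replicate 2) to 3429 (without sgH2AC19 replicate 3) with 1 library left out. It was 1663 without sgControl replicate 1, 1632 without replicate 3 and 1965 without sgH2AC19 replicate 2. For the listed genes 26 calls became 11 with every gene above 0 FPKM in the test, and 12 to 29 with 1 library left out, where fewer samples enter the fit. Same-numbered libraries of the groups correlated at 0.0524, 0.0346 and 0.0602 in their deviations from the group means. With 3 libraries a group, such values cannot show whether the numbers pair the libraries. With the number as a block 2729 genes and 18 listed genes were called. Of the 23 listed genes taken by the naming rule, 9 were called in all alternatives and 13 lost a call with at least 1 library left out. STC2 was not called with every gene above 0 FPKM in the test (adjusted p = 0.0644). Depth limits AHRR, CYP1A1 and UGT1A6, at 6 to 66 reads a library.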

Other observations

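Genes near CYP1B1, TIPARP and NNMT were read from the same fit, a choice made after the data had been seen. Among all genes tested 23.1% were called, and with 4 or 5 genes a window nothing is read from the counts. Whether the calls of these neighbours hold with a library left out is not given. Within 500 kb of CYP1B1 4 genes were tested, 0 rose and 1 fell by limma's adjusted p: ATL2, which shapes the endoplasmic reticulum, went from 20.4 ± 0.314 to 16.4 ± 0.709 FPKM (log2 difference -0.30, limma adjusted p = 0.00544). Near TIPARP 5 genes were tested, 1 rose and 1 fell, by 0.30 (LINC00886) and -0.17 (SSR3). Near NNMT 5 were tested, 2 rose and 0 fell by limma's adjusted p. ZW10, a kinetochore gene 484 kb from NNMT, went from 4.97, 4.47 and 4.78 FPKM in sgControl to 9.92, 10.9 and 10.9 in sgH2AC19 (log2 difference 1.01, SE 0.058, limma adjusted p = 0.000243). RBM7, 86.7 kb away and nearer than ZW10, went from 3.73 ± 0.166 to 5.19 ± 0.570 FPKM (0.38, limma adjusted p = 0.0118).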
